A study of Mus musculus with 36 samples.

Results

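The 0 h time point compares B3 cells that carry the inducible Ikaros construct with B3 cells that carry the empty vector, in DNA methylation measured by reduced representation bisulfite sequencing (RRBS) before Ikaros is moved into the nucleus. It holds 6 of the 36 libraries of the series, 3 Ikaros and 3 Control, and the other 30 libraries cover 2, 6, 12, 18 and 24 h. The regions compared are CpG clusters, runs of listed cytosines with at most 100 bp between neighbours. Of 18009 such clusters, 17038 had at least 1 position with a value in all 6 libraries, and the level of a cluster was the mean over these positions. The question is whether, where and in which direction the methylation of the transduced lines already differed at the start of the time course.

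B3 is a mouse pre-B cell line. The Ikaros cells were transduced with an MSCV retrovirus that encodes a fusion of haemagglutinin-tagged Ikaros with the hormone-binding domain of the estrogen receptor (HA-Ikaros-ERt2-IRES-GFP), and the Control cells with a vector that encodes ERt2 without Ikaros and the same IRES-GFP. GFP-positive cells were sorted, expanded and frozen, so each group descends from transduced stocks of the same parental line, and differences between stocks cannot be told apart from effects of the construct. The sample labels give 0.5 µM 4-hydroxytamoxifen (4-OHT), the ligand that releases the fusion protein, for the 0 h libraries as for every other time point. The study's methods describe the starting time point as untreated. The replicates 1, 2 and 3 of each group came from batches 1, 2 and 4, which were collected separately. P-values of tests on the 6 libraries of 0 h measure the spread between these cultures. Because the same stocks served for all time points, the later libraries are separate measurements but not separate lines. According to the study's methods, thawed cells were expanded and then split into flasks for the time points. Fits that use the later libraries treat flasks of the same batch as separate cultures. Their P-values therefore do not measure the spread between cultures alone.

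Cytosine methylation at CpG dinucleotides is copied to the new strand when DNA is replicated, so a methylation state can be passed on through many cell divisions. CpG-rich promoters are mostly unmethylated, and most other CpGs of a mammalian genome are methylated. Ikaros, the product of Ikzf1, is a zinc finger transcription factor of lymphocytes that binds sites with the core GGGAA and recruits the NuRD and Sin3 corepressor complexes. Fused to ERt2, it is held in the cytoplasm until 4-OHT is added.

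The sequence around the centre of 6 clusters is given here, because their levels separated the lines in every library and because they represent both directions and different genomic settings. Each window has 300 bases, is written 5′ to 3′ on the plus strand of GRCm38, and has in capitals the CpGs measured in all 6 libraries. Nol4l (chr2:153443750-153444049) and Clasp1 (chr1:118459205-118459504) lie at promoters, and the windows named after Trim29 (chr9:43286735-43287034) and Zfp36 (chr7:28376394-28376693) are intergenic. In these 4 the Ikaros cells had the higher level. At 2810410L24Rik (chr11:120189545-120189844), annotated as a processed transcript, and at Il27ra (chr8:84042193-84042492), whose cluster overlaps coding sequence at the start of the gene, they had the lower level.
Nol4l: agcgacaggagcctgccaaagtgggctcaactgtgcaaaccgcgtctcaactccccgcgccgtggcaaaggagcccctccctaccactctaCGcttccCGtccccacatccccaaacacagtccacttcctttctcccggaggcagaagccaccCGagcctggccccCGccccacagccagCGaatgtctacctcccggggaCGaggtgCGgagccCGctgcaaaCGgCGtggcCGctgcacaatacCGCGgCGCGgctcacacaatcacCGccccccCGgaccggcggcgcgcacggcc
Clasp1: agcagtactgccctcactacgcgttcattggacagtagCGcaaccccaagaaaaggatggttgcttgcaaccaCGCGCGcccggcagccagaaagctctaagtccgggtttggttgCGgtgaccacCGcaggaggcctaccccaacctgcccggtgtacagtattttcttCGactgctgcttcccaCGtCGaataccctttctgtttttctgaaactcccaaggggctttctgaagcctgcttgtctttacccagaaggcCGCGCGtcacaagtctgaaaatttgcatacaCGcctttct
Trim29 (intergenic): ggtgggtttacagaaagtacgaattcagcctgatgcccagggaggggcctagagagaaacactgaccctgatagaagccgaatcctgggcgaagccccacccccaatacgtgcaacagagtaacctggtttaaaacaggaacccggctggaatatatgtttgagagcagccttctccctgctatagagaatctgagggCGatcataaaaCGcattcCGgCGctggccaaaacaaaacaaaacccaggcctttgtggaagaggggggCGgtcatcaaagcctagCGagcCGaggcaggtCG
Zfp36 (intergenic): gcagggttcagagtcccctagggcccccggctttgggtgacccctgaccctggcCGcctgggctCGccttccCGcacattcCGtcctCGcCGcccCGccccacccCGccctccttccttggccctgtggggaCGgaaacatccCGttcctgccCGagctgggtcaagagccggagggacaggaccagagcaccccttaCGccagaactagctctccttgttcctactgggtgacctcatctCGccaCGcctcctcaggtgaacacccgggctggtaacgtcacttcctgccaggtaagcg
2810410L24Rik: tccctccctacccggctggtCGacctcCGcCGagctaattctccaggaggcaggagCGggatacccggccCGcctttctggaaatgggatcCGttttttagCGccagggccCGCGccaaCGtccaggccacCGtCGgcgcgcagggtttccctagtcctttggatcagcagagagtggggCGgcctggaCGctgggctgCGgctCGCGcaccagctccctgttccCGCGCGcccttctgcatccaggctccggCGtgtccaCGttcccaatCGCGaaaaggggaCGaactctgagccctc
Il27ra: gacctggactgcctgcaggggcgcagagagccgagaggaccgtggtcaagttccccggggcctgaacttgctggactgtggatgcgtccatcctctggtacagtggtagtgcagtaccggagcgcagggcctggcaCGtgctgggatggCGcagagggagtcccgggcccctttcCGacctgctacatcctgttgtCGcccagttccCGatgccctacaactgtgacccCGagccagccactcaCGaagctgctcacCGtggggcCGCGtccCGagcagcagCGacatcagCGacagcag

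Every CpG of the Nol4l cluster that had a value in all 6 libraries was higher in the 3 Ikaros libraries than in the 3 Control libraries, 25 of 25, with differences between 21.4 and 43.6 percentage points. The same held for 14 of 14 CpGs near Zfp36 (16.8 to 42.2 points) and for 8 of 9 near Trim29 (17.9 to 42.3 points). At Clasp1 it held for 10 of 14 CpGs. The other 4 lay at one end of the cluster and were unmethylated in all libraries. At 2810410L24Rik, 21 of 25 CpGs were lower in every Ikaros library, and at Il27ra 11 of 16. Over all 947029 positions with 6 values, 3.67% were higher and 7.001% lower in every Ikaros library. As the 6 clusters were chosen because their levels did not overlap, these counts describe how far along each cluster the separation reached and support nothing further. Neighbouring CpGs also share information through the smoothing of the deposited levels.

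**Figure D1:**
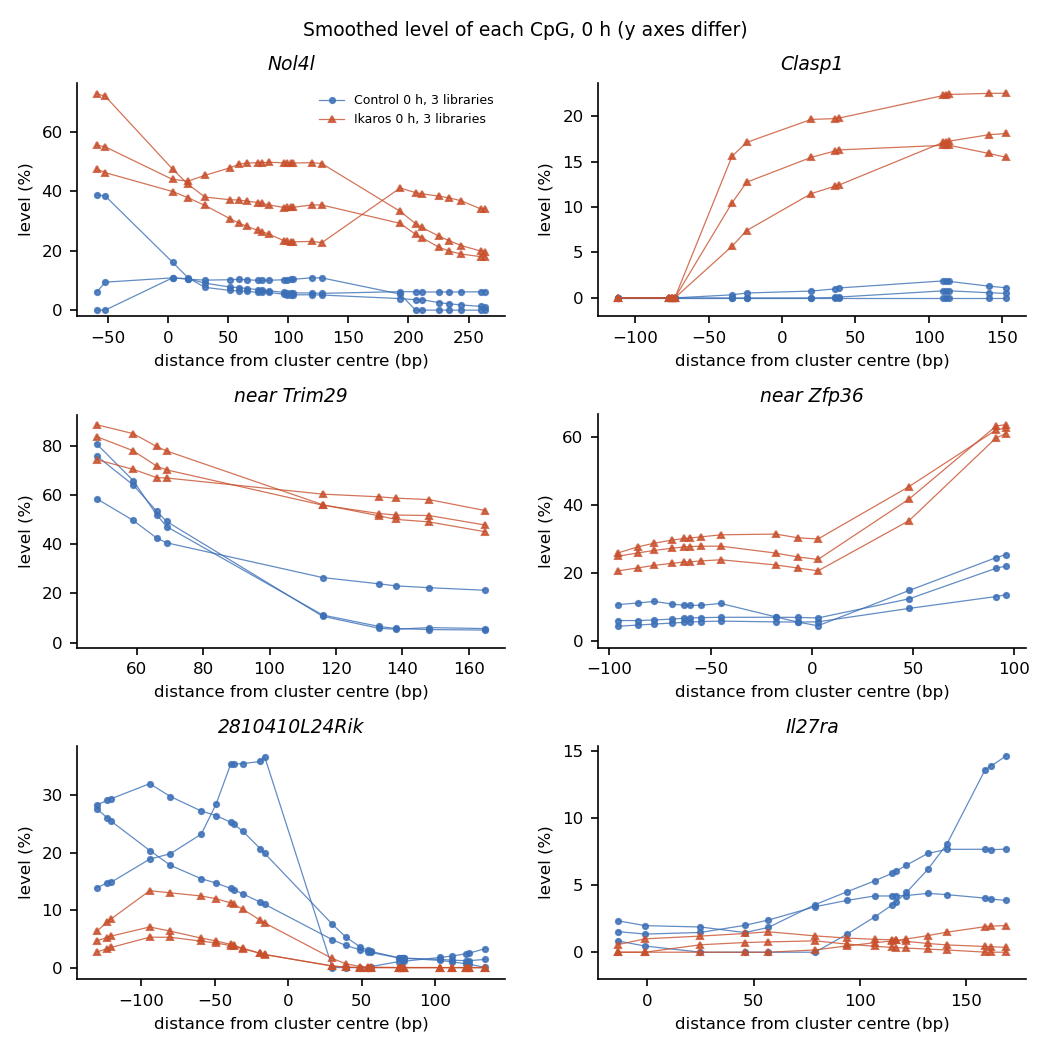
Smoothed methylation level (%) of each CpG of 6 clusters at 0 h against the distance from the cluster centre in bp, with 1 line per library (circles, 3 Control libraries; triangles, 3 Ikaros libraries; y axes differ between panels). The lines of the groups are apart along the whole measured stretch at Nol4l and near Zfp36, and over part of the cluster at Clasp1, 2810410L24Rik and Il27ra.

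Overall methylation did not separate the groups. The mean level over all positions was 38.35%, 38.65% and 38.47% in Control and 38.46%, 38.60% and 38.83% in Ikaros, a difference of 0.136 points (exact permutation test, two-sided, p = 0.5, smallest possible 0.1) that ranged from 0.0343 points without Ikaros replicate 3 to 0.221 points without Ikaros replicate 1. They were not alike in completeness. Control replicate 1 had no value at 11.6% of the listed positions and Control replicate 3 at 5.41%, compared with 0.194% to 0.717% in the other 4 libraries. Levels of exactly 0 made up 27.9%, 23.7% and 19.97% of the values in Control and 38.4%, 31.8% and 33.8% in Ikaros, without overlap (exact permutation test, two-sided, p = 0.1, the smallest possible). The deposited values carry no read numbers, which leaves their depth unknown. Pearson correlations of M-values were 0.975 to 0.986 within the groups and 0.973 to 0.986 between them. Their means differed by 0.00101 (exact permutation test over 10 splits, one-sided, p = 0.1, the smallest possible), and by -0.00064 without Ikaros replicate 1 and 0.000109 without Ikaros replicate 3 (exact permutation test, p = 0.6 in both). Among the 1940 clusters with a mean level of 10% to 90%, the median difference between libraries was 3.80 to 6.24 points for pairs of Control libraries, 3.59 to 4.67 points for pairs of Ikaros libraries and 3.98 to 7.53 points between the groups. Control replicate 1 was the lowest of the 6 libraries in 612 of these clusters and the highest in 404.

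With the 6 libraries alone, 1 cluster of 17038 (0.00587%) passed the threshold, an adjusted p under 0.05 in limma after Benjamini-Hochberg adjustment. With the replicate number as a block, which pairs libraries of the same batch, no cluster passed (limma, 1187 at an unadjusted p under 0.05). The cluster that passed, at chr11:85886388-85886725, covers the start of Tbx4, a T-box transcription factor of limb and lung development. Its level was 91.5%, 92.5% and 90.6% in Control and 100% in each Ikaros library. The groups did not overlap (difference 8.48 points, adjusted p = 0.0059). The value rests on 6 of 35 listed positions. The call was lost with the spread of all 36 libraries (adjusted p = 0.22), and at 2 to 24 h the difference was -0.20 points (adjusted p = 0.97).

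An unadjusted p under 0.05 was reached by 1178 clusters (6.91%), 517 of them higher in Ikaros (3.03%) and 661 lower (3.88%). The other 9 of the 10 smallest P-values all had an adjusted p of 0.12 and did not pass. Nol4l, Zfp608, Clasp1, Cyth3 (a guanine nucleotide exchange factor of ARF proteins) and Tspan2 (a tetraspanin) had the higher mean in Ikaros. Safb2 (a nuclear matrix protein), Bcor (a corepressor partner of Bcl6), Ano10 (a member of the anoctamin family) and a cluster nearest to Catsper1 (a sperm calcium channel subunit) had the lower mean. At Cyth3 (chr5:143622313-143622467) the levels were 19.95%, 19.8% and 21.6% in Control and 33.7%, 31.8% and 30.6% in Ikaros. At Tspan2 (chr3:102734583-102735411) they were 80.5%, 76.3% and 78.9% against 88.9%, 87.5% and 89.6%. At Bcor on chromosome X (chrX:12128743-12128980) Control had 7.04%, 5.19% and 4.70%, and the 3 Ikaros libraries were listed at 0. In each of these clusters the groups were apart. Cyth3 and Tspan2 were also higher in Ikaros at 2 to 24 h (18.2 points, adjusted p = 0.00065, and 6.73 points, adjusted p = 5.1e-06). Bcor was not called there (-3.39 points, adjusted p = 0.14).

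A separate fit used more libraries for the spread of each cluster. When the spread was estimated from all 36 libraries, with a mean for each of the 12 conditions, and the contrast at 0 h was tested in 16734 clusters, 36 passed (0.215%), 28 higher in Ikaros (0.167%) and 8 lower (0.0478%), and 39 with the replicate block. The Tbx4 cluster was not among the 36. Replicate number 2 stands for batch 2 at 0 h and batch 3 later. With the batch label as the block 48 passed, 35 of them shared with the 36. The labels share batches 1 and 4 between 0 h and the later times, but the study's methods describe the 0 h cells as obtained separately. None of the 36 overlapped between the groups at 0 h, compared with 13.6% of all clusters without overlap. With the 6 libraries alone 35 of them reached an unadjusted p under 0.05, compared with 6.91% of all clusters. Both values restate the choice, since the 36 were called on the difference between these same libraries, and support nothing further. Without Control replicate 2 the fit called 70 clusters (40 higher, 30 lower), 28 of them shared with the 36. Without Control replicate 1 it called 44 (25 higher, 19 lower), 20 of them shared. With the share of empty positions as a covariate it called 18 (8 higher, 10 lower), of which only 8 were shared with the 36. The split between higher and lower clusters thus moved with the libraries and covariate used. In the next paragraphs the 36 clusters are ordered by what their genes are known to do, which is an arrangement made after the calls and not a tested grouping. Their adjusted P-values come from this limma fit, which used positions with a value in all 36 libraries.

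**Figure D2:**
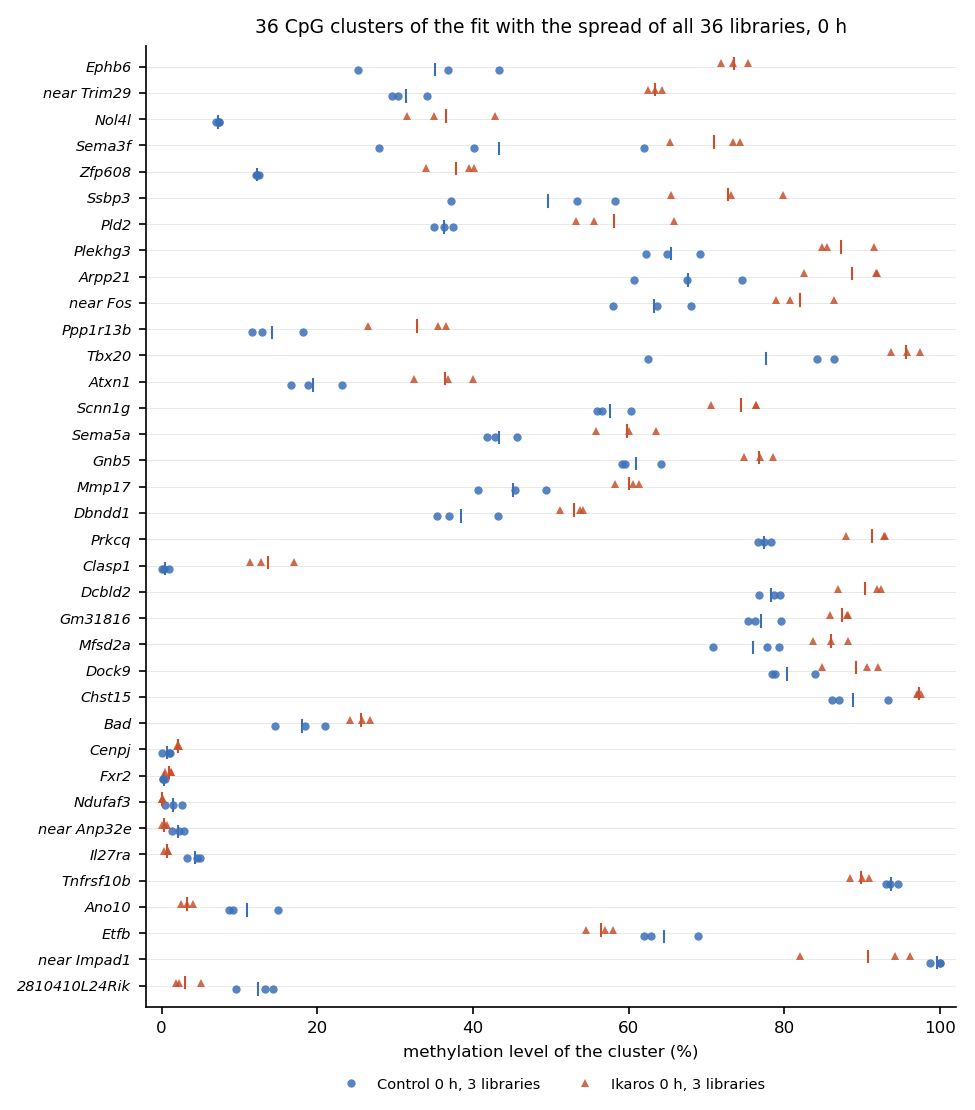
Methylation level (%) at 0 h of the 36 clusters that passed with the spread of all 36 libraries, named by gene or nearest gene and ordered by the difference (circles, 3 Control libraries; triangles, 3 Ikaros libraries; vertical bars, group means). In every row the circles and triangles are apart, from Ephb6 (38.4 points higher in Ikaros) at the top to 2810410L24Rik (9.35 points lower) at the bottom.

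Among receptors and ligands, Ephb6, Sema3f, Sema5a and Dcbld2 were higher in Ikaros, and Il27ra and Tnfrsf10b lower. Ephb6, a receptor of the ephrin family that lacks kinase activity and is expressed in lymphocytes, had levels of 25.2%, 43.4% and 36.8% in Control and 75.3%, 71.9% and 73.5% in Ikaros at a cluster over its start (chr6:41605257-41605789). All Ikaros libraries were far above all Control libraries (38.4 points, adjusted p = 0.0056). Sema3f, a secreted semaphorin, had 40.1%, 61.9% and 28.0% against 74.3%, 73.4% and 65.3% (chr9:107709304-107710248, adjusted p = 0.020). Here the Control libraries were spread over more than 30 points, and the gap to the lowest Ikaros library was narrow. Sema5a, a transmembrane semaphorin, had 41.8%, 42.8% and 45.6% against 55.7%, 60.0% and 63.6% (chr15:32245146-32246463, adjusted p = 0.0056). Dcbld2, a neuropilin-like membrane protein, had 79.5%, 78.6% and 76.7% against 91.9%, 86.8% and 92.4% (chr16:58408182-58408670, adjusted p = 0.032). Il27ra, a subunit of the interleukin-27 receptor, had 4.57%, 3.33% and 4.95% in Control and 0.334%, 0.869% and 0.787% in Ikaros (chr8:84042173-84042513, adjusted p = 0.021).

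At Nol4l, a nucleolar protein gene, the promoter cluster (chr2:153443595-153444205) had 6.99%, 7.35% and 7.39% in Control and 31.6%, 42.8% and 35.1% in Ikaros (adjusted p = 0.0079). Control was low and uniform, and each Ikaros library was far above it. The 6 other Nol4l clusters differed by -2.12 to 1.44 points and did not pass. Of these, 1 was higher and 3 were lower in every Ikaros library (4.92% and 8.65% of all clusters), among them chr2:153529877-153530451 with 3.30%, 4.16% and 3.14% against 0.999%, 1.86% and 1.38%. The 3 lower ones were also called lower at 2 to 24 h. Zfp608, which encodes a zinc finger protein, showed the same picture in a coding exon (chr18:54987739-54987993), with 12.2%, 12.5% and 12.2% against 39.5%, 40.1% and 33.9% (25.5 points, adjusted p = 0.0024). Another Zfp608 cluster, at chr18:54898865-54899165, overlapped between the groups, with 90.9%, 88.9% and 82.0% against 88.4%, 85.6% and 86.3%. Atxn1, a chromatin-binding protein that acts with the repressor Capicua, had 18.8%, 23.2% and 16.6% against 36.8%, 40.0% and 32.4% at its promoter (chr13:45963503-45964502, 16.9 points, adjusted p = 0.040). Atxn1 had 3 other clusters. The 2 in coding exons differed by -0.75 and -1.32 points, and the latter (chr13:45566636-45567373) was lower in every Ikaros library at 0 h but higher by 4.43 points later (adjusted p = 0.0070). A second one near the start (chr13:45965398-45966123), with 68.1%, 62.5% and 56.01% against 70.4%, 64.5% and 70.8%, overlapped at 0 h and was higher by 12.2 points later (adjusted p = 1.2e-05). Ssbp3, a partner of LIM-domain cofactors, had 37.2%, 58.2% and 53.3% against 79.9%, 73.1% and 65.5% (chr4:106912457-106912811, adjusted p = 0.018). An intergenic cluster 1360 bp from a start of Fos, an AP-1 subunit, had 58.1%, 63.6% and 68.0% against 80.7%, 78.9% and 86.4% (chr12:85472154-85472530, adjusted p = 0.0056). Tbx20, a T-box factor of the heart, had 62.5%, 84.2% and 86.3% against 93.7%, 97.4% and 95.7% (chr9:24770158-24770269, adjusted p = 0.028). The lowest of its Control values was in replicate 1.

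Among enzymes and signalling proteins, Pld2, a phospholipase D, had 37.4%, 34.99% and 36.2% in Control and 65.8%, 55.5% and 53.2% in Ikaros over its start (chr11:70539927-70540503, adjusted p = 0.0011). Prkcq, the protein kinase C isoform theta known from T-cell receptor signalling, had 78.3%, 77.3% and 76.7% against 92.9%, 88.0% and 92.9% (chr2:11172033-11172328, adjusted p = 0.020). In both genes the Control libraries lay within 3 points of each other. Chst15, a sulfotransferase of chondroitin sulfate, had 87.1%, 93.3% and 86.1% against 97.6%, 97.1% and 97.1% (chr7:132315217-132315995, adjusted p = 0.0011). Plekhg3 and Dock9, exchange factors of small GTPases, and Gnb5, a G protein beta subunit, were higher by 21.8, 8.80 and 15.8 points. Ppp1r13b, a p53-binding protein, and Bad, a pro-apoptotic member of the Bcl2 family, were higher by 18.6 and 7.57 points. Clasp1, which binds the ends of microtubules, was all but unmethylated in Control (0%, 0.296% and 0.973%) and had 12.7%, 16.996% and 11.4% in Ikaros (adjusted p = 0.0079). Arpp21, a cAMP-regulated phosphoprotein, Mmp17, a membrane-bound matrix metalloproteinase, Mfsd2a, a lipid transporter, and Scnn1g, a sodium channel subunit, were higher by 21.2, 14.9, 9.99 and 16.8 points. Cenpj (0%, 1.12% and 0.896% against 2.21%, 2.05% and 1.95%) and Fxr2 (0.432%, 0.174% and 0.171% against 1.24%, 1.21% and 0.455%) were higher near the lower end of the scale. Their later differences were -0.32 and 0.04 points (adjusted p = 0.38 and 0.75). The remaining higher clusters were at Dbndd1, Gm31816 and the intergenic site nearest to Trim29. That site, 23798 bp from the closest coding gene start, had 29.6%, 30.4% and 34.2% against 62.5%, 64.2% and 63.4% (chr9:43286721-43287050, adjusted p = 0.0056).

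The 8 lower clusters differed by 1.45 to 9.35 points, with a median of -5.80 points, compared with 0.708 to 38.4 points and a median of 16.6 points for the 28 higher ones. Ano10 had 15.0%, 9.20% and 8.64% in Control and 4.04%, 2.47% and 3.29% in Ikaros (chr9:122293794-122294383, adjusted p = 0.0011). The cluster of 2810410L24Rik had 13.3%, 14.3% and 9.59% against 5.08%, 1.83% and 2.24% (chr11:120189476-120189914, adjusted p = 0.018). In both clusters every Ikaros library was below every Control library. With the median over positions in place of the mean, the difference at Ano10 was -2.75 points instead of -7.68. Etfb, a subunit of the electron transfer flavoprotein, had 62.0%, 62.9% and 68.9% against 54.5%, 56.97% and 57.99% (chr7:43443236-43443702, adjusted p = 0.0046). The others were at Il27ra, Tnfrsf10b, Ndufaf3 (an assembly factor of respiratory complex I) and intergenic sites nearest to Anp32e and Impad1. Ndufaf3 and the Anp32e site had levels under 3% in every library.

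The genes of the 36 clusters had 33 other clusters, of which 5 were higher and 7 lower in every Ikaros library (4.92% and 8.65% of all clusters) and 21 overlapped. Most of the 36 clusters had an intermediate level of methylation, taken as the mean over the 6 libraries of 0 h. A large difference between the groups by itself takes this mean away from the ends of the scale, so the choice of clusters favours such levels. Of the 36, 31 (86.1%) lay within 1000 bp of a transcription start, compared with 82.6% of all clusters, and 25 (69.4%) had a mean level between 10% and 90%, compared with 11.4%. Their median GC content was 65.2% (all clusters, 67.5%) and their median length 526.5 bp (all clusters, 402 bp). The hexamer TGGGAA, which contains the Ikaros core and was searched on both strands of the 300 bases around the centre, occurred in 5 of the 36 (13.9%), compared with 15.9% of all clusters. Of the printed windows, Clasp1 and 2810410L24Rik held 1 match each and the others none. Chromosome 9 carried 8 of the 36 clusters and 5.504% of all clusters.

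Across all clusters, the difference between the groups had a median of -0.11 points, with its 5th and 95th percentiles at -3.05 and 4.55 points. In 2313 clusters (13.6%) the groups did not overlap, with 839 higher (4.92%) and 1474 lower (8.65%) in Ikaros. The split differed between classes of level. In the 6632 clusters under 1%, 703 were lower in every Ikaros library and 98 higher, and the mean level was 0.446% ± 0.0758 in Control and 0.317% ± 0.0350 in Ikaros (SD, n = 3). The share of levels at exactly 0 was higher in the 3 Ikaros libraries (above), and its part in this small difference was not tested. In the 1940 clusters of 10% to 90%, 277 (14.3%) were higher and 90 (4.64%) lower, the only class with more higher than lower clusters, with a mean of 59.9% ± 1.20 in Control and 62.2% ± 1.06 in Ikaros (SD, n = 3). The library means of this class overlapped, since Control replicate 2 had 61.20% and Ikaros replicate 1 61.13%. The other classes had 142 higher and 156 lower clusters (1% to 10%), 278 and 448 (90% to 98%) and 44 and 77 (98% or more).

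**Figure D3:**
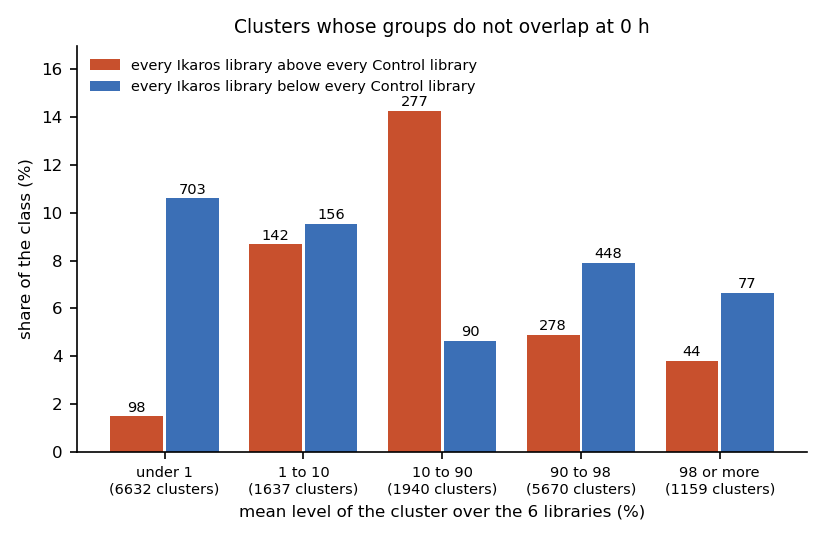
Share (%) of the clusters of each class of mean level, over the 6 libraries of 0 h, in which every Ikaros library was above (red) or below (blue) every Control library. The numbers on the bars are clusters. Higher clusters outnumber lower ones in the class of 10% to 90% (277 against 90), and lower ones outnumber higher ones in the other 4 classes, most in the class under 1% (703 against 98).

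Wide gaps between the groups were rare. In 101 clusters (0.593%) the nearest libraries of the groups were at least 5 points apart, 83 of them higher (0.487%) and 18 lower (0.106%) in Ikaros, and 78 of the 83 had a mean level of 10% to 90%. A wide gap by itself takes the mean level away from the ends of the scale. Leaving out any of the 6 libraries gave 159 to 222 such clusters, as fewer values have to be apart. The split then ranged from 109 higher and 50 lower (without Ikaros replicate 3) to 175 and 47 (without Control replicate 2), so the lower ones made up a larger part than with all 6 libraries. At a gap of 10 points or more there were 28 clusters (0.164%), 23 higher (0.135%) and 5 lower (0.0293%). Among them were Klf4, a zinc finger factor of stem cells and of lymphocyte quiescence (73.1%, 80.5% and 67.1% against 95.4%, 97.7% and 92.3%, chr4:55532219-55532296), and Gse1, a protein found with histone demethylase complexes (3.84%, 5.87% and 4.62% against 23.3%, 26.8% and 18.9%, chr8:120487589-120488104). The lower ones were Rxra, Slc31a2, Bcr, Arl1 and Qrfp. Rxra, the retinoid X receptor alpha, had 60.2%, 68.5% and 76.8% against 34.5%, 37.96% and 49.6% (chr2:27676466-27676772). These 28 clusters were chosen for their gap after their values were seen, and none of Klf4, Gse1 and Rxra passed in the limma tests at 0 h.

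The 30 libraries of 2 to 24 h made it possible to choose clusters without the values of 0 h. With the time point as a factor, 776 of 16734 clusters (4.64%) passed there, 619 higher (3.7%) and 157 lower (0.938%) in Ikaros. At 0 h, 510 of the 619 had a positive difference, with a median of 2.54 points compared with 3.78 points at 2 to 24 h. In 209 of them (33.8%) every Ikaros library of 0 h was above every Control library, compared with 4.92% of all clusters, and in 5 the reverse was found. Of the 157 lower clusters, 135 had a negative difference at 0 h, and in 58 (36.9%) every Ikaros library was below every Control library, compared with 8.65% of all clusters, with no case of the reverse. Within the class of 10% to 90%, the shares were 143 of 305 (46.9%) and 14 of 36 (38.9%), against 14.3% and 4.64% of the class. Without Control replicate 1 the counts were 278 and 78, against 8.13% and 16.4% of all clusters, and 15 clusters went the opposite way. Over the 6 ways of leaving out 1 library the opposite cases numbered 11 to 18.

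**Figure D4:**
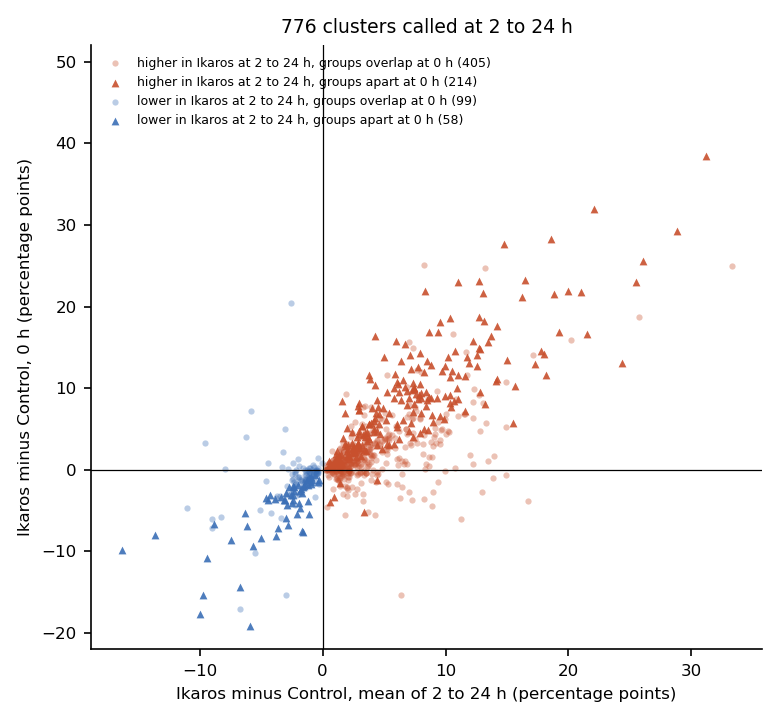
Difference Ikaros minus Control in percentage points at 0 h (y axis) against the mean difference at 2 to 24 h (x axis) for the 776 clusters that passed at 2 to 24 h, red where higher and blue where lower in Ikaros there. Triangles mark clusters whose groups do not overlap at 0 h. Most red points lie above and most blue points below 0 at 0 h.

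The 10 clusters with the largest positive difference at 2 to 24 h all had a positive difference at 0 h, of 13.04 to 38.4 points. In 8 of them every Ikaros library of 0 h was above every Control library, compared with 4.92% of all clusters and 14.3% of the class of 10% to 90%. The 10 were Mllt3, Ephb6, Nol4l, Zfp608, Tnrc18, Zfp36, Plekhh1, Trim29, Gpr161 and Tspear. The site near Zfp36, a gene for an mRNA decay factor, had 12.0%, 9.16% and 6.76% in Control and 28.7%, 35.5% and 32.8% in Ikaros (chr7:28376448-28376641). Its difference was 23.0 points at 0 h and 25.5 points later (adjusted p = 9.3e-08). At 0 h this cluster passed in neither limma fit (smallest adjusted p over the alternatives 0.098). The groups overlapped at Mllt3 (75.0%, 32.6% and 36.9% against 77.9%, 66.9% and 74.5%) and at Tnrc18 (85.9%, 61.2% and 55.2% against 82.4%, 88.4% and 87.6%). In both, Control replicate 1 was high and the other Control libraries were well below Ikaros. Without it the difference at Mllt3 was 38.4 points instead of 25.0. Of the 10 largest negative differences, 9 were negative at 0 h. In 6 every Ikaros library was below every Control library, compared with 8.65% of all clusters and 4.64% of the class of 10% to 90%. The cluster with a positive difference was at Bcor (chrX:12127593-12128016), with 27.1%, 30.6% and 32.4% against 40.2%, 31.1% and 28.6%. At the promoter of Camk1d, a calmodulin-dependent kinase, Control had 78.6%, 82.0% and 82.1% and Ikaros 94.3%, 91.7% and 92.9% at 0 h (chr2:5714258-5715251). The difference of 12.1 points did not pass at 0 h (adjusted p = 0.40, and 0.085 with the spread of all libraries) and was 10.5 points at 2 to 24 h (adjusted p = 1.3e-08). With the median over positions the difference at 0 h was 4.05 points.

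Seen from 0 h, 25 of the 28 higher clusters of the 36-library fit were called in the same direction at 2 to 24 h. Of the 8 lower ones, 3 were called in the same direction (Ano10, Etfb and 2810410L24Rik) and 1, Tnfrsf10b, in the opposite direction. The 30 later libraries supplied most of the estimate of spread at 0 h, so the tests share this estimate though not the differences. Of the clusters with an unadjusted p under 0.05 with the 6 libraries alone, 157 of 513 higher ones (30.6%) and 51 of 652 lower ones (7.82%) were called in the same direction later, and 0 and 4 in the opposite direction. Over all clusters 3.7% and 0.938% were called higher and lower later. The share depends on the level, since 16.0% of the clusters of 10% to 90% were called higher later and 1.89% lower. Within this class, 110 of 194 higher clusters (56.7%) and 15 of 64 lower ones (23.4%) were called in the same direction later.

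Some clusters with wide gaps at 0 h had small or opposite differences later. At the promoter of Fgf9, a fibroblast growth factor, Control had 36.05%, 8.90% and 9.36% and Ikaros 55.5%, 48.2% and 50.5% at 0 h (chr14:58071159-58071324, 33.3 points). The later difference was -9.69 points (adjusted p = 0.15), with Control at 17.6% to 56.0% and Ikaros at 3.39% to 51.2%. At Tbx20 the later difference was 0.30 points (adjusted p = 0.91), with Control at 90.8% to 98.1%, above all 3 Control libraries of 0 h. Bok, a Bcl2 family member, differed by 18.6 points at 0 h and 2.92 points later, and Arl1, a Golgi GTPase, by -19.3 and -1.35 points. A test of the change itself, the difference at 0 h against the mean difference at 2 to 24 h, called 1 of 16734 clusters (0.00598%; 1201 at an unadjusted p under 0.05). That cluster was Tnfrsf10b (chr14:69767395-69767830), with 94.6%, 93.1% and 93.5% in Control and 90.1%, 90.9% and 88.5% in Ikaros at 0 h, a difference of -3.92 points compared with 0.62 points later (adjusted p = 0.018). With the batch of the labels as a block this test called no cluster (smallest adjusted p = 0.056, 1236 clusters at an unadjusted p under 0.05). None of Fgf9, Tbx20, Bok and Arl1 passed this test (adjusted p of 0.39, 0.39, 0.63 and 0.64). Without Control replicate 1 the test called Gdi2 and Smc5 in place of Tnfrsf10b.

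**Figure D5:**
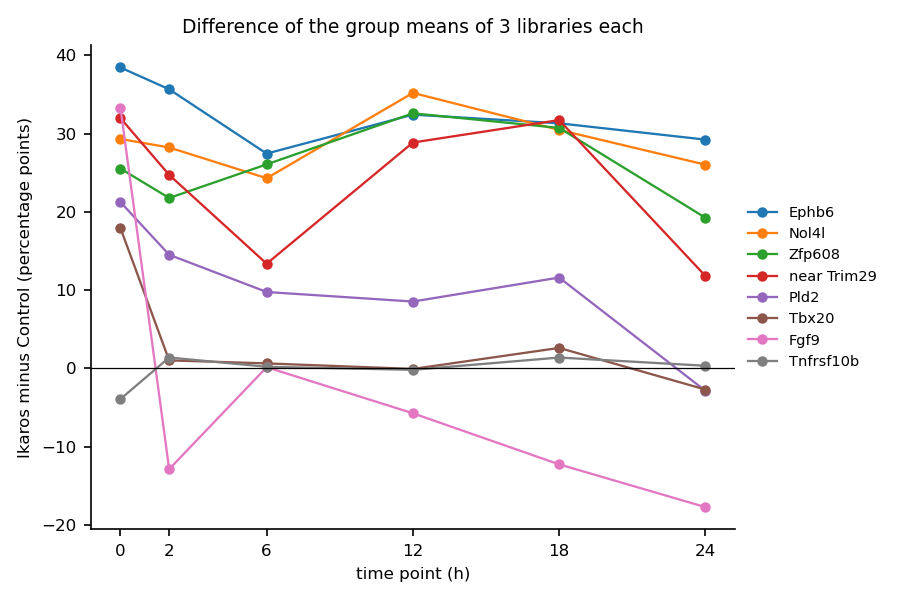
Difference Ikaros minus Control in percentage points (y axis) at the 6 time points in h (x axis) for 8 clusters, each point being the difference of the means of 3 libraries each. Ephb6, Nol4l and Zfp608 stay above 19 points at all time points, whereas the points of Tbx20, Fgf9 and Tnfrsf10b at 2 to 24 h lie nearer to 0 than at 0 h or on its other side, a change that passed the test for Tnfrsf10b and not for Tbx20 and Fgf9.

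The gene lists gave no call at 0 h in either limma fit. They cover 234 genes, 167 of them with a cluster within 1000 bp of a start, and 271 clusters, of which 8 were higher and 6 lower at an unadjusted p under 0.05 (5.17%, compared with 6.91% of all clusters). The Ikaros family had 6 clusters. At Ikzf1 itself the 3 promoter clusters had levels of 96.8% to 99.5% in all libraries and differences of -1.08 to 0.97 points. Ikzf3 (Aiolos) had 19.4%, 25.0% and 23.9% in Control and 23.5%, 27.4% and 31.6% in Ikaros (chr11:98545724-98546059). These values overlapped (4.68 points, adjusted p = 0.84, and 2.64 points without Ikaros replicate 3), and the difference was 10.2 points at 2 to 24 h (adjusted p = 2.3e-05). Ikzf2 (Helios) differed by -0.08 points, which turned to 11.6 points (unadjusted p = 0.013, adjusted p = 0.47) without Control replicate 1 and with the positions of the other 5 libraries, and the cluster in front of Ikzf5 by -0.73 points.

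Of 44 clusters of B-lineage transcription factors, 37 had mean levels under 10%. In 1 of the 44 every Ikaros library was above every Control library and in 4 below, compared with 4.92% and 8.65% of all clusters. Bach2, a repressor of plasma cell differentiation, had 0.9001%, 1.05% and 1.04% in Control and 0.472%, 0.669% and 0.424% in Ikaros (chr4:32239538-32240118, -0.48 points, unadjusted p = 0.011, adjusted p = 0.50). Id3, an inhibitor of E proteins, had 21.7%, 21.1% and 24.9% in Control and 32.9%, 27.7% and 33.5% in Ikaros (chr4:136143719-136144272). The groups were apart, but the difference of 8.82 points did not pass (unadjusted p = 0.0081, adjusted p = 0.46), and it was 8.03 points later (adjusted p = 4.5e-05). Erg, an ETS factor, had 81.8%, 90.9% and 87.8% against 92.4%, 89.4% and 93.7%, which overlapped (5.00 points, and 2.49 points without Control replicate 1). Its later difference was 9.71 points. Id3, Erg and Klf2 were the 3 clusters of this list called at 2 to 24 h, all higher in Ikaros. In the Myc, glycolysis and nutrient uptake list 32 of 34 clusters were under 10%, and a Mycn cluster had 0%, 0.527% and 1.24% against 2.45%, 1.91% and 2.22% (chr12:12941729-12941855, unadjusted p = 0.00085, adjusted p = 0.27). This cluster was called higher later, by 1.29 points. Among 28 clusters of NuRD and Ikaros partners, 25 were under 10%, and 1 was higher and 4 were lower in every Ikaros library. Mta1, a NuRD subunit, had 0.679%, 0.919% and 0.883% against 0%, 0.127% and 0.289% (chr12:113098423-113098760, unadjusted p = 0.048, adjusted p = 0.72). Sin3b, a scaffold of the Sin3 complex, had 10.4%, 8.23% and 8.32% against 12.7%, 11.5% and 12.5% (chr8:72723351-72723785, unadjusted p = 0.00045, adjusted p = 0.22). It was higher by 2.41 points later, the only call of this list at 2 to 24 h. Among 20 clusters of DNA methylation enzymes, Tet1, a dioxygenase that oxidises 5-methylcytosine, had 85.8%, 82.7% and 85.7% against 90.8%, 88.3% and 90.5% (chr10:62885927-62886416, adjusted p = 0.62), and the 19 others had an unadjusted p of at least 0.05.

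Among 34 clusters of imprinted genes, Impact had 52.7%, 49.4% and 42.3% in Control and 21.0%, 34.8% and 26.6% in Ikaros (chr18:12973140-12973470, -20.7 points, adjusted p = 0.48). A Gnas cluster at chr2:174328405-174328781 had 20.1%, 40.9% and 33.0% against 58.1%, 50.2% and 50.6% (21.7 points). Both were apart at 0 h, neither passed, and the later differences were 1.05 and 3.14 points (adjusted p = 0.98 and 0.91). Nnat had 100%, 97.9% and 99.7% against 95.7%, 96.2% and 95.8% (chr2:157561448-157561803, -3.30 points, unadjusted p = 0.0032, adjusted p = 0.41), and its later difference was 0.04 points. Of the 34 clusters, 2 were called at 2 to 24 h, both higher in Ikaros. Igf2 (chr7:142660530-142661035) was apart at 0 h by 6.10 points, without a call, and differed by 5.12 points later. Commd1 (chr11:22971952-22972750) overlapped at 0 h, at -0.48 points, and differed by 1.66 points later. Of 34 clusters of the Notch pathway, Notch3 had a higher and Notch1 and Dll1 a lower mean in Ikaros at an unadjusted p under 0.05, by 3.42, -2.81 and -2.27 points. Dll1 turned to 0.83 points without Control replicate 1 and with the positions of the other 5 libraries, and Notch1 was at -1.35 points without Ikaros replicate 1. Of the pre-B receptor and kinase list (22 clusters), the cell-cycle list (28 clusters) and the V(D)J recombination list (6 clusters) none reached an unadjusted p under 0.05.

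No cluster at the start of a cell type marker passed in either limma fit at 0 h. The 3 B-cell markers with a cluster, Ebf1, Pax5 and Vpreb1 (a cluster shared with Top3b), had at most 1.32% in all 6 libraries. The other 13 genes of that list had no cluster with a value. Myeloid Cebpa had 93.3% to 99.3% in its 3 clusters. One of them (chr7:35118404-35119046) was apart, with 97.5%, 96.8% and 97.4% against 98.7%, 98.7% and 98.5% (unadjusted p = 0.0018, adjusted p = 0.34), and its later difference was -0.04 points. The stromal and epithelial markers Cdh1, Epcam and Krt18 had 90.2% to 98.6%. Of the T-cell markers, Gata3 at chr2:9878809-9878965 had 51.8%, 53.1% and 23.4% against 7.21%, 31.3% and 27.6%, with overlap, without a call (adjusted p = 0.87). Tcf7 had 43.4%, 42.1% and 41.5% against 44.7%, 47.5% and 46.2% (3.80 points, adjusted p = 0.49, and 0.75 points with the median over positions). These groups were apart, and the later difference was 6.23 points (adjusted p = 0.00022). An intergenic cluster nearest to Tcf7 (chr11:52314142-52314437) had the opposite direction, with 88.98%, 90.2% and 88.7% against 85.8%, 83.5% and 77.1% (-7.17 points, adjusted p = 0.57, and -3.62 points later, adjusted p = 0.0091). Epor and Itga2b, erythroid and megakaryocyte markers, had 86.4% to 97.7%. Klf1, of the same list, had 6.79% in Control replicate 1 and at most 1.26% in the other libraries.

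Control replicate 1, the library with most empty positions, decided some large differences alone. At Cdk6, a kinase of the G1 phase, it had 70.1% where the other 5 libraries had 0.988% to 7.35% (chr5:3343700-3344020). At Cdkn1b, the cell-cycle inhibitor p27, it had 29.6% where the others had 0% to 1.35% (chr6:134920886-134921263). The resulting differences of -20.6 and -10.1 points overlapped between the groups. Without this library the main test called 3 clusters, Tbx4, Bcor (chrX:12128743-12128980) and an intergenic cluster nearest to Nxph1, in place of 1, and without Control replicate 2 it called Tbx4 and a coding exon of Lrrc8b. Without Control replicate 1 and with all positions that had a value in the other 5 libraries, it called no cluster.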

How the data were processed

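RRBS libraries of B3 cells were compared at 0 h, with 3 Ikaros and 3 Control samples, and the 30 libraries of 2 to 24 h served for look-up. The authors aligned reads with Bismark (0.10.1) to GRCm38 and deposited smoothed methylation levels per cytosine as a fraction from 0 to 1, made with BiSeq inside CpG clusters. Cytosines of both strands are listed, so a CpG can count as 2 positions. No read numbers accompany the levels, so the depth per value is unknown and no interval for counting error is given.

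Positions at most 100 bp apart were joined, and a cluster was kept where at least 1 position had a value in all 6 libraries. The tests used the deposited M-values, log2 of the ratio of methylated to unmethylated fraction, averaged per cluster. The authors had limited the levels to 0.01 to 0.99 before this transformation. Of the clusters, 595 had every M-value at a limit. Groups were compared with limma (3.58.1, R 4.3.3) and Benjamini-Hochberg adjustment over all clusters, and sizes are differences of mean levels in percentage points. Single values were compared with exact permutation tests. The study's methods state no test of differences. Scripts used Python 3.11.15, numpy 2.4.6, pandas 2.3.3, scipy 1.17.1 and matplotlib 3.10.9, and the tests were checked on simulated data. Genes follow GENCODE M21, and a promoter cluster lies within 1000 bp of a start.

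The replicate numbers stand for batches shared by both groups, which pairs the samples of 0 h (replicate 2 is batch 2 there and batch 3 later, so the 36-library fits were also blocked by batch), although deviations from the group means of same-numbered samples had correlations of -0.0116, -0.0166 and -0.0102. Clusters were named where they passed, otherwise as the 10 smallest P-values, together with Zfp608, Camk1d, Atxn1, the Ikaros family and list members past the threshold. The clusters of the 36-library fit, those chosen at 2 to 24 h, those with wide gaps, and the list and Control replicate 1 examples fall outside this rule and were named after their values were seen. Members and gene lists were chosen with earlier results of these data known. Alternatives covered the scale, block, samples, positions, filters, summary, variance model and covariates.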

Additional observations from a re-analysis of the deposited data

Results flagged for a closer look

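The cluster at the start of Tnfrsf10b, a death receptor gene, was singled out because its difference at 0 h departed from the mean difference at 2 to 24 h in a test of that change (limma, adjusted p = 0.0182). The call was lost with the batch of the labels as a block, where the smallest adjusted p was 0.056. It was also lost with levels in place of M-values (limma, smallest adjusted p = 0.14) and without Control replicate 1 of 0 h, where 2 other clusters were called. It was kept with the replicate block and without Control 24 h replicate 2 (limma, adjusted p = 0.034 and 0.032). At 0 h Ikaros was lower by 3.92 points, and at 2, 6, 12, 18 and 24 h the differences were 1.38, 0.20, -0.19, 1.38 and 0.33 points. The later libraries ranged from 89.9% to 92.9% in Control and from 90.4% to 94.7% in Ikaros. The 3 Control libraries of 0 h, at 93.1% to 94.6%, lay above the later Control range, and 2 of the 3 Ikaros libraries of 0 h, at 90.1% and 88.5%, below the later Ikaros range. The study's methods describe the 0 h cells as obtained separately, whereas the labels give batches 1 and 4 both at 0 h and at later times. Time and collection therefore cannot be told apart.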

How the results depend on the processing

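The single call at 0 h depended on the processing. The count was 0 with levels in place of M-values, with at least 20 positions per cluster, with mean levels of 10% to 90%, with medians over positions, with trend and robust variance estimation, with the share of levels at exactly 0 or 1 as a covariate, and without Control replicate 1 with the positions of the other 5 libraries. It was 36 with all samples in the fit, none of them the Tbx4 cluster, and 0 to 3 when 1 library was left out. Unadjusted P-values under 0.05 numbered 193 (mean levels of 10% to 90%, 1940 clusters) to 1598. With the replicate block, which pairs the batches of 0 h, no cluster was called. With the spread of all libraries 39 were called with the replicate number as the block, which joins batch 2 of 0 h with batch 3, and 48 with the batch label.

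With that spread, whose further settings were chosen after seeing the data, levels gave 71 calls, the share of levels at exactly 0 or 1 as a covariate 22, the share of empty positions 18, and leaving out 1 library of 0 h 25 to 70. The test of 0 h against later times called 0 clusters with levels, 0 with the batch as a block and 2 without Control replicate 1. Clusters with groups at least 5 points apart numbered 159 to 222 with 1 library left out. The difference of correlations was 0.000109 to 0.00315 with 1 library left out, except -0.00064 without Ikaros replicate 1.

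Of 54 clusters followed, 49 had the same direction in every alternative. Ikzf2 ranged from -0.50 to 0.66 points with 1 library left out (0.64 without Control replicate 3) and turned to 11.6 points with the positions of the other 5 libraries. Ikzf1 (start 11686154) ranged from -0.29 to 0.75, below 0 without Control replicate 2 (-0.0062) and without Ikaros replicate 1, and turned to -0.27 with medians. Dll1 turned to 0.83 with the positions of the other 5 libraries. Zfp608 (start 54898865) ranged from -3.12 to 1.37, above 0 without Control replicate 1 or 2 or Ikaros replicate 2, and turned to 1.37 with the positions of the other 5 libraries and 0.84 with medians. Bcor (start 12127593) ranged from -0.14 (without Ikaros replicate 1) to 5.65. The causes were not tested. Unknown depth, smoothing and 3 libraries a group limit what can be called.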
